A study of Mus musculus with 20 samples.

Results

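The genes of the major histocompatibility complex (MHC) class I pathway were followed in mural granulosa cells (GCs), which form the inner lining of the ovarian follicle and feed and signal to the oocyte. The 10 genes were H2-K1, H2-D1, H2-Q4, H2-Q10 and H2-T23, which encode class I heavy chains, B2m, which encodes the light chain, and Tap1, Tap2, Tapbp and Psmb8, which act in peptide supply and loading. They were matched by symbol among 55487 genes in the count data, and all 10 were found. H2-K1 and H2-Q10 were chosen by their difference in counts between the 2 mouse lines in these same data, so their line values are a description without a test.

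Samples came from 20 female mice, 1 sample per mouse, at an age of 77 ± 5 days. The 4 groups of 5 mice were ctrl in estrus, FL1 in estrus, ctrl in diestrus and FL1 in diestrus. FL1 is a line selected over many generations for litter size, ctrl is an unselected line kept by rotational mating, and both descend from a common crossbred founder population. No transgene or knockout is part of the FL1 line, each condition is represented by 1 line, and the MHC haplotypes of the mice are not given in the sources used here. The stage was read from vaginal smears, and only the largest follicles were opened, leaving the oocyte with its cumulus cells behind.

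In the annotation used here (GENCODE M21, GRCm38) 9 of the 10 genes lie in the MHC on chromosome 17. H2-K1 (ENSMUSG00000061232) is at chr17:33996017-34000347 on the minus strand, near Tapbp (chr17:33915899-33929292), Tap1 (chr17:34187553-34197225), Psmb8 (chr17:34197721-34201454) and Tap2 (chr17:34203527-34216321), all on the plus strand. H2-D1 (ENSMUSG00000073411) is at chr17:35262730-35267499, followed by H2-Q4 (chr17:35379617-35385290) and H2-Q10 (chr17:35470089-35474563), all on the plus strand, and by H2-T23 (chr17:36029773-36032855) on the minus strand. B2m is at chr2:122147686-122153083 on the plus strand.

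Reads were taken from the 3′ ends of polyadenylated transcripts, so a count stands for a transcript end and does not grow with transcript length. Between 5446576 and 8257041 reads per sample were counted on genes (median 6457585.5). Another 23.2% to 32.8% of the reads matched several places and were counted on no gene. Expression is given as CPM, counts scaled to a common library size, with TMM factors over all 20 samples. The 10 granulosa cell markers summed to between 5813 and 16060 CPM in every sample, and none was at 0 in any group. The 10 T and natural killer cell markers summed to at most 16.8 CPM in any sample. Markers of other cells were higher. The 8 markers of theca and stroma summed to 134 to 2093 CPM, 5 blood genes to 47.8 to 1625 CPM and 8 oocyte markers to 58.0 to 634 CPM.

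Class I molecules show short peptides from inside the cell to CD8 T cells and natural killer cells. Proteasomes cut the peptides, in immune-stimulated cells with exchanged catalytic subunits such as that from Psmb8, and the TAP transporter carries them into the endoplasmic reticulum. There tapasin (Tapbp) holds the transporter next to an empty heavy chain bound to B2m until a peptide fits. H2-K1 and H2-D1 are the classical heavy chains of the mouse, whereas H2-Q4, H2-Q10 and H2-T23 are nonclassical, H2-Q10 being known as a secreted molecule of the liver and H2-T23 as the Qa-1 molecule. Interferons and NF-kB raise many of these genes through elements close to their start sites.

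RefSeq promoters (250 bases before to 50 bases after the start, GRCm38.p6) were found for 9 of the 10 genes, and Tap2 was not among them. The stretch below is shown because there the classical heavy chain genes H2-K1 and H2-D1 can be set beside H2-Q4 and H2-Q10, which were detected in mice of mainly 1 line. Capitals mark an inverted repeat with arms of 5 bases (the first run, 11 bases), known as the NF-kB site of class I genes, and the longest stretch that all 4 promoters share (the second run, 15 bases), which holds their known interferon response element. Both are read 5′ to 3′ on the strand of the gene. The H2-K1 window is chr17:34000418-34000479 (minus strand), the H2-D1 window chr17:35262902-35262963, the H2-Q4 window chr17:35379422-35379483 and the H2-Q10 window chr17:35469892-35469953 (plus strand).
H2-K1: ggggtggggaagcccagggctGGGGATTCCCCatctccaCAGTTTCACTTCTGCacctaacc
H2-D1: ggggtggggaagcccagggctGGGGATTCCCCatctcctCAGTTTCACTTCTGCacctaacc
H2-Q4: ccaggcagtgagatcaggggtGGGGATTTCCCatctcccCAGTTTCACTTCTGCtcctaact
H2-Q10: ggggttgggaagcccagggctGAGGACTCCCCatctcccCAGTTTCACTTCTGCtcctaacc

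The shared stretch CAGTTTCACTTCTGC was present in 7 of 32851 promoters searched on both strands (0.0213%), these 4 included. The inverted repeat GGGGATTCCCC was present in H2-K1 and H2-D1 and in 10 promoters in all (0.0304%). It begins 18 bases before the shared stretch and does not overlap it. At the same place H2-Q4 differed from the inverted repeat by C8T and H2-Q10 by G2A and T6C, counted from 1 at the 5′ end of the 11 bases with the base of the repeat first. A letter match is a description of the reference and not a measured binding site.

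The B2m promoter held another form of interferon response motif, a pair of GAAA with 2 bases between them, which was present in 3.44% of all promoters on either strand and, among the 9 genes, also in H2-T23. Its window is chr2:122147528-122147577 (plus strand), with the motif in capitals.
B2m: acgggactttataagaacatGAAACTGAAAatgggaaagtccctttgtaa

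The short motifs TGACG and CCAAT, both known from class I promoters, were present in 5 and 7 of the 9 promoters and in 20.8% and 37.4% of all promoters. H2-Q10 and Psmb8 held neither of them.

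H2-K1 was the most abundant heavy chain transcript in all but 3 samples and was stronger expressed in FL1 mice than in ctrl mice in both stages. In estrus the 5 ctrl mice had 87.6, 102.6, 50.7, 98.6 and 88.1 CPM and the 5 FL1 mice 319, 282, 212, 181 and 234 CPM. In diestrus the ctrl mice had 58.9, 62.7, 109.4, 181 and 185 CPM and the FL1 mice 312, 290, 304, 266 and 292 CPM. All FL1 samples lay above all ctrl samples of the same stage. The FL1 mice in diestrus were close together, while the ctrl mice in diestrus were widely spread. Means were 85.5 ± 20.5 and 246 ± 55.0 CPM in estrus (SD, n = 5) and 119 ± 61.4 and 293 ± 17.2 CPM in diestrus. The log2 fold change was 1.52 ± 0.22 (SE) in estrus, 1.30 ± 0.30 in diestrus and 1.41 ± 0.19 over both stages with stage as a covariate. Because H2-K1 was picked for this difference, no test is given. Among all tested genes, 1.85% in estrus and 0.823% in diestrus had every FL1 sample above every ctrl sample.

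**Figure D1:**
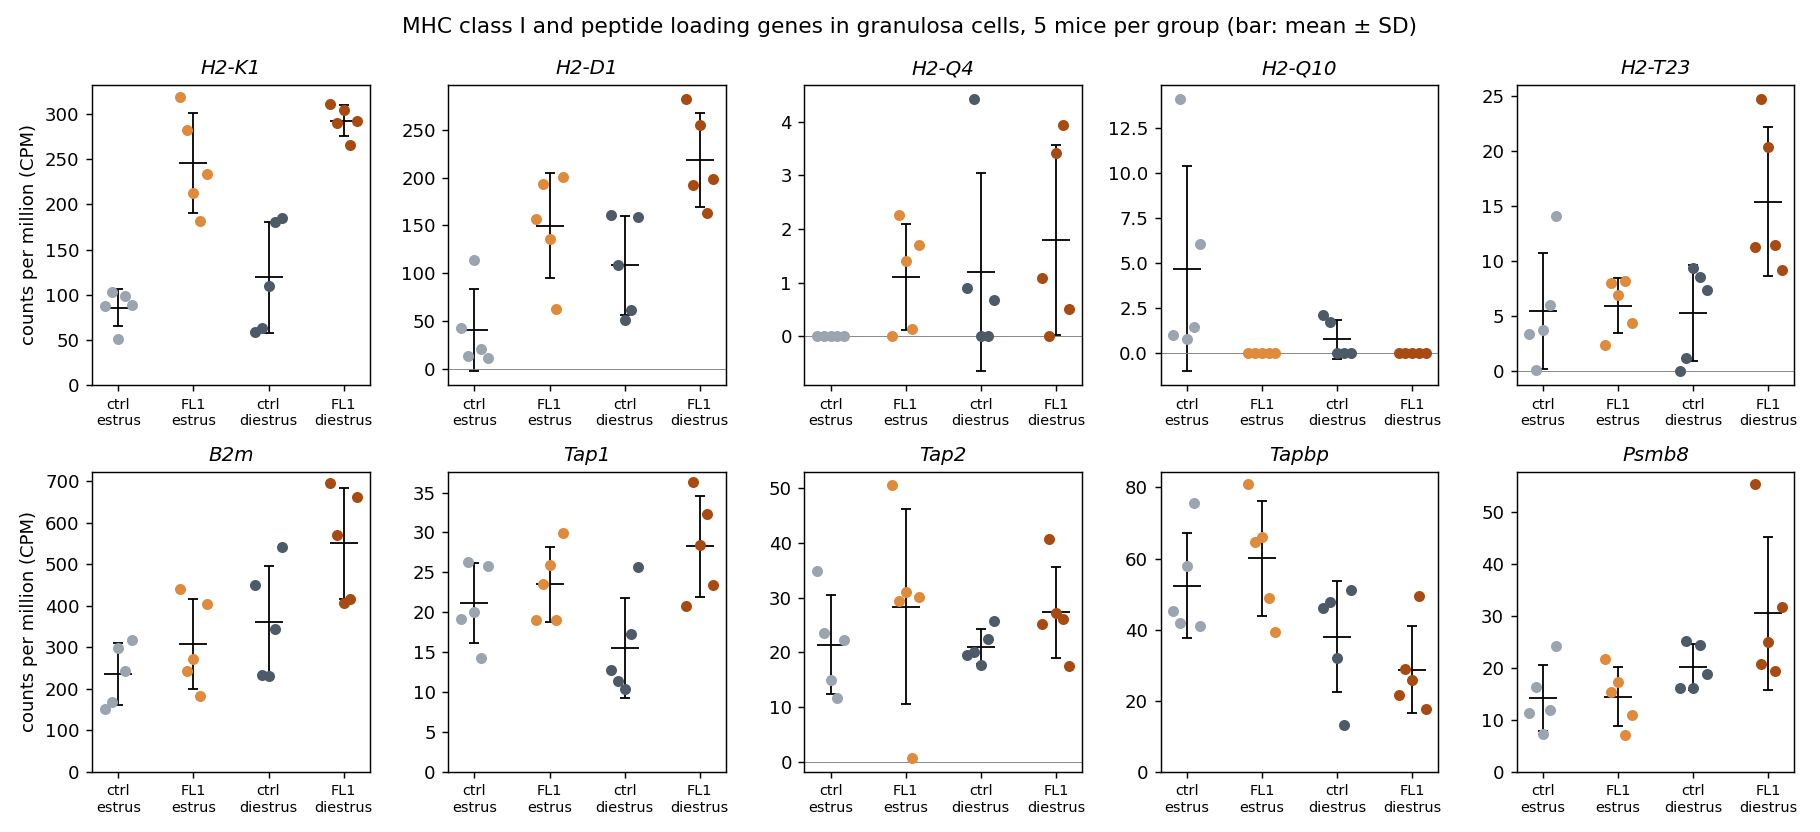
CPM of the 10 genes in each of the 20 mice (points), by line and stage, with the mean and SD of 5 mice per group (black bars) and a separate CPM axis for each gene. H2-K1 lies between 181 and 319 CPM in FL1 mice and between 50.7 and 185 CPM in ctrl mice, and H2-Q10 is at 0 in every FL1 mouse.

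H2-D1, the second classical heavy chain, was also stronger expressed in FL1 mice, and it is the gene of this pathway whose line difference passed the test. In estrus the ctrl mice had 42.1, 13.2, 113.5, 20.4 and 10.9 CPM and the FL1 mice 157, 193, 136, 62.9 and 201 CPM. In diestrus the ctrl mice had 160, 108.97, 50.7, 61.6 and 158 CPM and the FL1 mice 283, 192, 255, 163 and 198 CPM. The groups overlapped in estrus, where ctrl replicate 3 exceeded FL1 replicate 4. They did not overlap in diestrus, as was so for FL1 above ctrl in 0.823% of all tested genes. Over both stages the log2 fold change was 1.45 ± 0.33 (adjusted p = 0.0191, edgeR quasi-likelihood test), and DESeq2 gave an adjusted p of 0.0116. Within estrus it was 1.90 ± 0.51 (adjusted p = 0.0989, edgeR), and within diestrus 1.02 ± 0.30 (adjusted p = 0.409, edgeR). Ctrl replicate 3 in estrus was the highest of its group for H2-D1, so leaving it out had to widen the difference. Without it the log2 fold change in estrus was 2.79 with an adjusted p of 0.00329 (edgeR). The 10 fits that each left out 1 estrus sample gave 1.67 to 2.79. The summed CPM of 12 macrophage markers also had higher means in FL1 mice, 117 against 49.8 in estrus and 71.3 against 21.01 in diestrus, and their part in the line values of the class I genes was not tested.

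Across the 8 genes that were not picked for the line, H2-D1 was the 1 called over both stages, where 1.21% of all 14938 tested genes were called. Unadjusted p-values under 0.05 were found for H2-D1, B2m and Tap1, 3 of the 8 genes, against 11% of all genes. The median log2 fold change of the 8 genes was 0.50, with 7 above 0, against a median of 0.01 and 51.2% above 0 over all genes. H2-Q4 was tested only over both stages, since its counts were too low within a stage. Of the 7 genes tested within a stage none was called in estrus (0.769% of all genes called) or in diestrus (0.248%) by edgeR or by DESeq2. Unadjusted p-values under 0.05 were found for H2-D1 in estrus and for H2-D1, B2m and Tap1 in diestrus, against 10.7% and 5.56% of all genes. The difference of the line effect between the stages was called for none of the 8 genes by edgeR or DESeq2 (0.0% of all genes called by edgeR), and its unadjusted p was under 0.05 for 1, H2-Q4, against 4.75% of all genes.

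**Figure D2:**
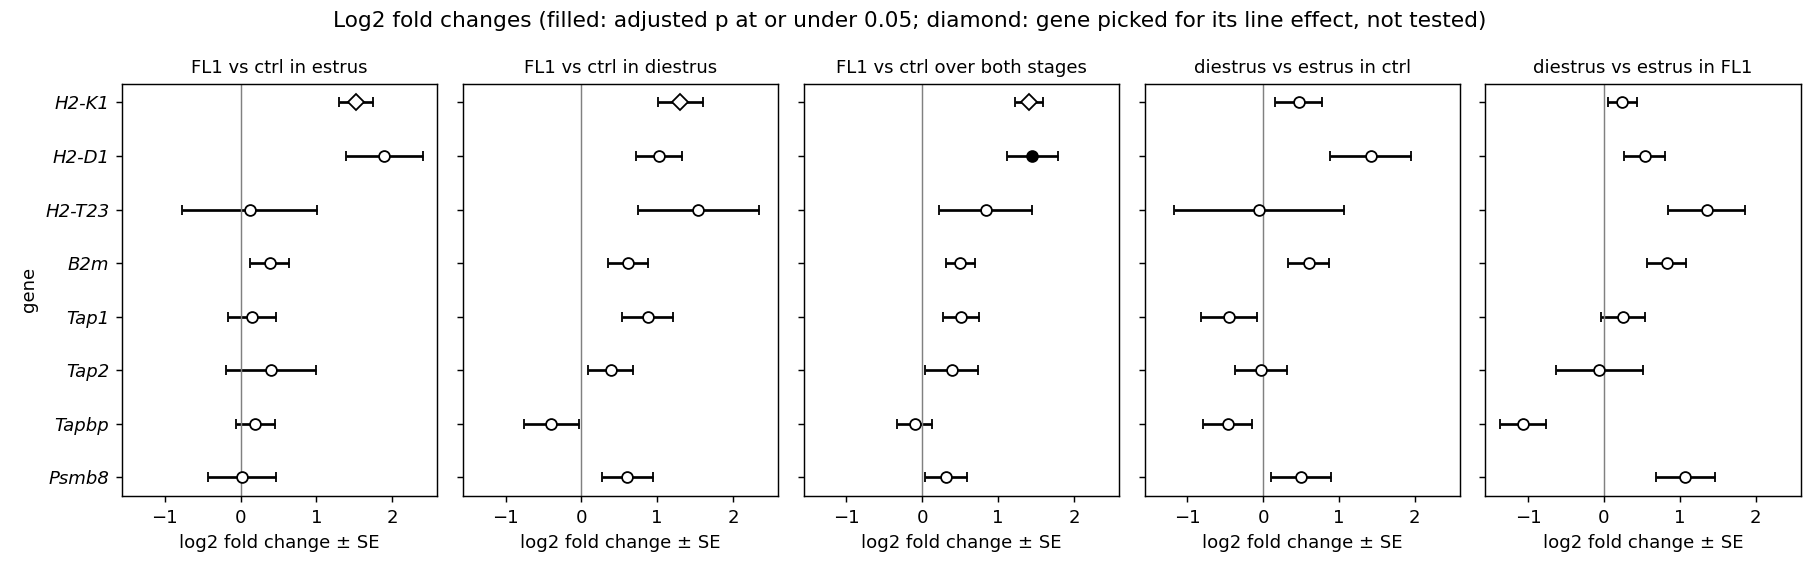
Log2 fold change ± SE (horizontal axes) of 8 of the genes (vertical axis) in 5 comparisons, one per panel, where filled circles passed an adjusted p of 0.05, open circles did not, and diamonds mark H2-K1, which was not tested for the line. H2-D1 is the only filled circle, at 1.45 ± 0.33 over both stages. H2-Q4 and H2-Q10 are left out because most of their values are near 0.

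H2-Q10 showed the opposite pattern at a far lower level, with reads only in ctrl mice. The raw counts in estrus were 7, 91, 7, 10 and 35 in ctrl mice, and in diestrus 12, 13, 0, 0 and 0. All 10 FL1 mice had 0 counts, while 7 of 10 ctrl mice had reads. In estrus, where every FL1 sample lay below every ctrl sample, this was so for 1.71% of all tested genes. Levels in ctrl were 4.70 ± 5.71 CPM in estrus and 0.778 ± 1.08 CPM in diestrus (SD, n = 5). Against a floor of 3 counts per library the mean in estrus was at least 10.5-fold lower in FL1, and at least 5.21-fold lower without ctrl replicate 2, which held 91 of the reads. In diestrus the ctrl mean rested on replicates 1 and 2, and without replicate 1 it was 0.436 CPM, under the floor of 0.479 CPM, so no fold is given there. The counts passed no filter on low counts, and the line pattern is what the gene was picked for, so it was not tested.

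H2-Q4 was at 0 in all 5 ctrl mice in estrus and had 5, 33, 0, 0 and 5 counts in ctrl mice in diestrus. FL1 mice had 0, 18, 9, 1 and 10 counts in estrus and 7, 0, 21, 23 and 3 counts in diestrus. The gene was thus detected in 8 FL1 mice and 3 ctrl mice, and the mean in FL1 in estrus was at least 2.49-fold higher against the floor of 3 counts. The fit over both stages gave an adjusted p of 0.549 (edgeR).

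H2-T23 was low in 3 of the 4 groups and higher in FL1 mice in diestrus. There the values were 11.3, 24.7, 20.3, 11.5 and 9.23 CPM, against 2.36, 8.01, 6.88, 8.16 and 4.42 CPM in FL1 mice in estrus, without overlap. The ctrl mice ranged from 0.155 to 14.1 CPM in estrus and from 0 to 9.36 CPM in diestrus. The log2 fold change of diestrus against estrus in FL1 was 1.35 ± 0.51 (adjusted p = 0.357, edgeR), and 1.11% of all tested genes had every FL1 sample in diestrus above every FL1 sample in estrus. Between the lines in diestrus it was 1.54 ± 0.80 (adjusted p = 0.939, edgeR).

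Because class I heavy chain genes are near copies of each other, the 3′ ends were compared to see how far reads could move between them. Of all 50-base stretches in the last 500 bases of the transcripts, 11.8% of H2-K1, 18.8% of H2-D1, 27.6% of H2-Q4 and 20% of H2-T23 also occurred in another annotated gene, whereas it was 0.372% for H2-Q10. Of the 303 shared stretches of H2-K1, 179 occurred somewhere in the transcripts of H2-Q10 and 127 in those of H2-D1. With at least 90% identity over at least 100 bases, the 3′ ends of H2-K1 and H2-D1 matched each other and further heavy chain genes, 11 and 10 in all, while H2-Q10 matched none. B2m had no shared stretch, Tap1 1.41%, Tap2 6.64%, Psmb8 16.9% and Tapbp 19.6%, the last with the overlapping genes Gm19412 and Zbtb22. The strand setting of the counting is not given in the sources used here, so reads of genes on opposite strands cannot be told apart. The mice are outbred and were compared with 1 reference haplotype, so a read of one heavy chain gene may have been counted on another or left out as matching several places, and how often was not tested.

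The counts of all 32 annotated heavy chain genes were therefore also summed, of which 19 had at least 1 count. The sum was 177 ± 30.0 CPM in ctrl mice and 433 ± 111.1 CPM in FL1 mice in estrus, and 297 ± 89.0 and 576 ± 75.4 CPM in diestrus (SD, n = 5). Single ctrl mice ranged from 148 to 226 CPM in estrus and from 212 to 431 CPM in diestrus, and FL1 mice from 260 to 524 CPM and from 472 to 660 CPM. Within each stage the sums of the lines did not overlap, as was so for FL1 above ctrl in 1.85% of single genes in estrus and 0.823% in diestrus. The FL1 mean was 2.45 times the ctrl mean in estrus and 1.94 times in diestrus. Without H2-K1 the sum was 91.5 ± 48.3 CPM in ctrl and 188 ± 67.0 CPM in FL1 mice in estrus, and 177 ± 56.2 and 283 ± 58.5 CPM in diestrus, and the lines overlapped in both stages. These sums hold the gene picked for its line effect and are given without a test.

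**Figure D3:**
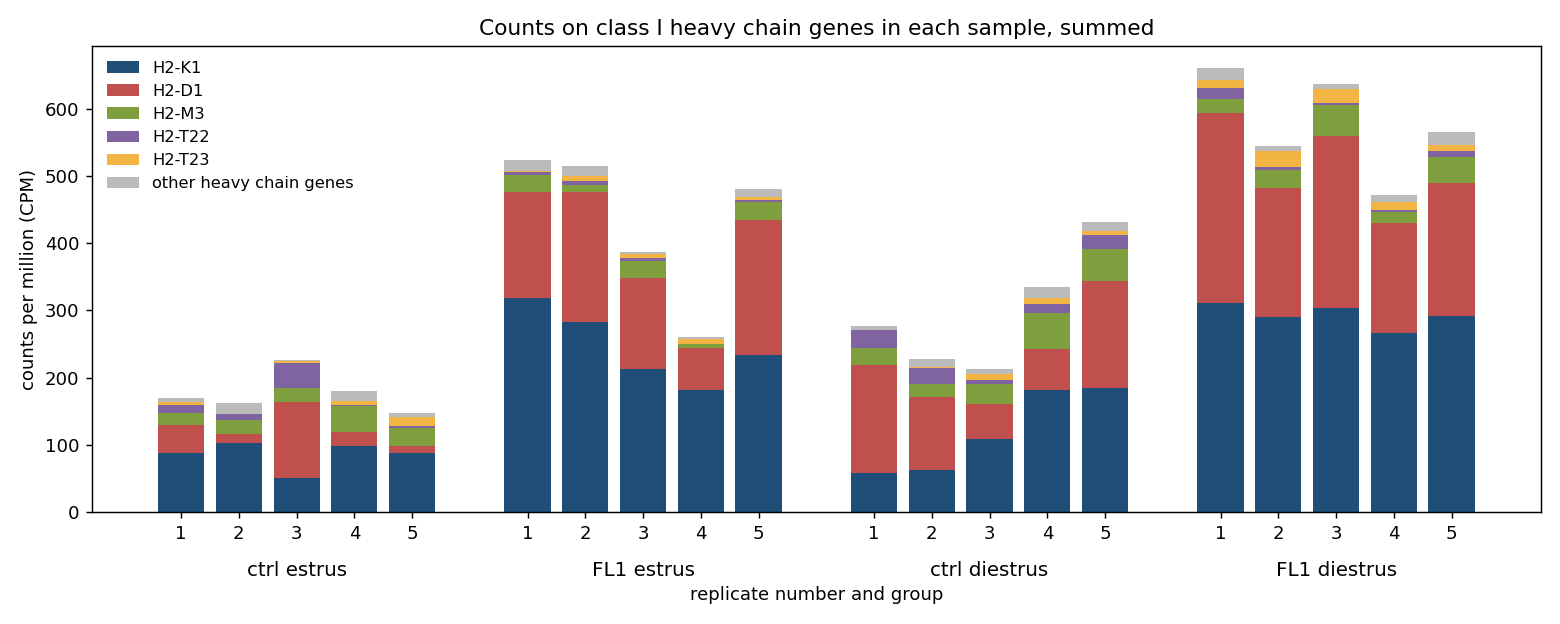
Summed CPM of the class I heavy chain genes in each of the 20 mice (bars, vertical axis in CPM), split by gene, with replicate numbers within the 4 groups on the horizontal axis. Bars of FL1 mice are taller than bars of ctrl mice in the same stage, 260 to 524 against 148 to 226 CPM in estrus, and the share of H2-D1 differs widely among ctrl mice.

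The make-up of the sum ranged more widely among ctrl mice than among FL1 mice in both stages, in estrus through ctrl replicate 3 alone. H2-K1 took 48.6% to 69.8% of the heavy chain counts in FL1 mice in estrus and 47.2% to 56.4% in diestrus. In ctrl mice it took 22.4% to 63.3% in estrus and 21.2% to 54.0% in diestrus. H2-D1 took 7.40% to 50.1% in ctrl mice and 24.2% to 41.7% in FL1 mice in estrus, and 18.4% to 57.8% and 34.5% to 42.8% in diestrus. The ctrl mice in estrus other than replicate 3 had 51.8% to 63.3% of H2-K1 and 7.40% to 24.85% of H2-D1. These ranges were no wider than those of FL1 mice in estrus. H2-D1 had more counts than H2-K1 in 1 ctrl mouse in estrus and in 2 ctrl mice in diestrus, and in 0 FL1 mice of either stage.

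In those 3 ctrl mice, replicate 3 in estrus and replicates 1 and 2 in diestrus, H2-K1 had its lowest values of each group. The same mice had the highest values of H2-T22, another nonclassical heavy chain gene, with 36.0 CPM in estrus and 27.0 and 24.2 CPM in diestrus. The remaining ctrl mice had 1.18 to 11.98 CPM of H2-T22 in estrus and 5.75 to 19.7 CPM in diestrus. H2-T22 and H2-M3 were picked out after their values had been seen. It was 12.2 ± 14.01 CPM in ctrl and 3.36 ± 2.001 CPM in FL1 mice in estrus, and 17.99 ± 8.58 and 7.35 ± 5.56 CPM in diestrus. Its log2 fold change over both stages was -1.57 ± 0.52 (adjusted p = 0.169, edgeR). H2-M3, a heavy chain that presents bacterial formyl peptides, was on average the third most abundant in each group and was 24.8 ± 8.15 and 18.9 ± 10.3 CPM in ctrl and FL1 mice in estrus and 35.1 ± 15.3 and 29.6 ± 12.4 CPM in diestrus (adjusted p = 0.790 over both stages, edgeR).

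The spread of H2-D1 between mice was wide in ctrl. The SD of its log2 CPM was 1.37 in ctrl mice in estrus, 0.77 in ctrl mice in diestrus, 0.68 in FL1 mice in estrus and 0.32 in FL1 mice in diestrus. Genes within 0.5 of its mean log2 CPM had median SDs between 0.33 and 0.35 in the 4 groups. For H2-K1 the SDs were 0.41, 0.79, 0.32 and 0.086 in the same order, against medians between 0.29 and 0.33. Single mice weigh on the SDs in estrus. Ctrl replicate 3 had 113.5 CPM of H2-D1 (group median 20.4) and 50.7 CPM of H2-K1 (group median 88.1). FL1 replicate 4 had 62.9 CPM of H2-D1 (group median 157).

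B2m, which encodes the class I light chain, had the highest mean of the 10 transcripts in each group. In FL1 replicate 2 in estrus H2-K1 was higher, with 1.17 counts per B2m count. In estrus ctrl mice had 151, 168, 298, 243 and 318 CPM and FL1 mice 440, 242, 272, 183 and 404 CPM. In diestrus ctrl mice had 450, 233, 231, 344 and 540 CPM and FL1 mice 695, 570, 406, 417 and 661 CPM. The lines overlapped in both stages. Group means followed the order FL1 in diestrus (550 ± 135 CPM), ctrl in diestrus (360 ± 136), FL1 in estrus (308 ± 109.3) and ctrl in estrus (236 ± 75.2), and only the step from the first to the second was larger than the pooled SD of its groups. The line log2 fold change over both stages was 0.50 ± 0.19 (adjusted p = 0.270, edgeR). Diestrus exceeded estrus by 0.60 ± 0.27 in ctrl (adjusted p = 0.386) and by 0.83 ± 0.25 in FL1 (adjusted p = 0.211, edgeR), with overlap in both lines.

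The ratio of heavy chain counts to B2m counts was 0.810 ± 0.250 in ctrl and 1.47 ± 0.384 in FL1 mice in estrus, and 0.856 ± 0.153 and 1.09 ± 0.285 in diestrus (SD, n = 5). In estrus the ctrl mice ranged from 0.464 to 1.12 and the FL1 mice from 1.19 to 2.13, without overlap. Of single genes 1.85% had every FL1 sample above every ctrl sample in estrus. In diestrus the ranges overlapped, 0.616 to 0.977 in ctrl and 0.855 to 1.57 in FL1. The ratio holds H2-K1 and is a description.

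The TAP transporter genes were expressed at a lower level. Tap1 had 19.1, 26.3, 20.1, 14.3 and 25.9 CPM in ctrl and 19.04, 23.5, 25.95, 18.99 and 29.9 CPM in FL1 mice in estrus. In diestrus it had 12.7, 11.4, 10.4, 17.3 and 25.6 CPM in ctrl and 20.8, 36.3, 28.4, 32.3 and 23.4 CPM in FL1 mice, and 3 of the 5 FL1 mice exceeded every ctrl mouse. The log2 fold change of the lines was 0.15 ± 0.32 in estrus, 0.87 ± 0.34 in diestrus (adjusted p = 0.755) and 0.51 ± 0.23 over both stages (adjusted p = 0.412, edgeR). Tap2 averaged 21.4 ± 9.005 and 28.3 ± 17.8 CPM in ctrl and FL1 mice in estrus and 21.1 ± 3.11 and 27.3 ± 8.34 CPM in diestrus, with a log2 fold change of 0.39 ± 0.35 over both stages (adjusted p = 0.800, edgeR). FL1 replicate 4 in estrus had 5 counts of Tap2 (0.704 CPM), while the other 4 mice of its group had between 29.4 and 50.5 CPM.

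Tapbp, which encodes tapasin, was the 1 of the 8 genes with a negative log2 fold change between the lines over both stages, at -0.10 ± 0.23 (adjusted p = 0.948, edgeR). It differed more by stage. FL1 mice had 81.1, 64.6, 66.1, 49.0 and 39.5 CPM in estrus and 21.7, 29.0, 25.8, 49.6 and 17.8 CPM in diestrus, with overlap through replicate 4 in diestrus. The log2 fold change of diestrus against estrus was -1.07 ± 0.30 in FL1 (adjusted p = 0.158, edgeR; DESeq2 adjusted p = 0.0512) and -0.47 ± 0.33 in ctrl (adjusted p = 0.677, edgeR). In ctrl the means were 52.4 ± 14.7 CPM in estrus and 38.0 ± 15.7 CPM in diestrus.

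Psmb8, the catalytic subunit that replaces a constitutive one in immunoproteasomes, had 11.3, 16.3, 7.34, 11.96 and 24.1 CPM in ctrl and 21.7, 15.3, 17.2, 7.04 and 10.9 CPM in FL1 mice in estrus. In diestrus it had 16.1, 25.2, 16.2, 24.4 and 18.8 CPM in ctrl and 55.3, 20.7, 25.0, 19.5 and 31.8 CPM in FL1 mice. All 4 groups overlapped with their neighbours. Diestrus exceeded estrus by 1.07 ± 0.39 on the log2 scale in FL1 (adjusted p = 0.333) and by 0.50 ± 0.39 in ctrl (adjusted p = 0.721), and the line log2 fold change over both stages was 0.31 ± 0.27 (adjusted p = 0.787, edgeR).

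By stage none of the 8 genes tested, H2-K1 included, was called by edgeR or DESeq2 in either line. In ctrl, where edgeR called 1.36% of all genes, the unadjusted p was under 0.05 for 2 genes, H2-D1 with a log2 fold change of 1.42 ± 0.53 (adjusted p = 0.262, edgeR) and B2m. In FL1, where 0.221% of all genes were called, it was under 0.05 for 4 genes, H2-T23, B2m, Tapbp and Psmb8, of which Tapbp was lower in diestrus. Over all genes the share with an unadjusted p under 0.05 was 11.8% in ctrl and 9.48% in FL1. Without ctrl replicate 3 in estrus the log2 fold change of H2-D1 by stage in ctrl was 2.31 with an adjusted p of 0.0265 (edgeR). That mouse had the highest H2-D1 of its group, so leaving it out had to widen the difference. The 10 fits that each left out 1 ctrl sample gave 1.18 to 2.31. H2-K1 differed little by stage, by 0.47 ± 0.31 in ctrl (adjusted p = 0.652) and by 0.24 ± 0.19 in FL1 (adjusted p = 0.782, edgeR). The comparisons of lines and of stages share their samples, so their values are not independent.

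To see whether the genes of the pathway rose and fell together in single mice, they were correlated within groups. After the group means had been removed, log2 CPM of 9 genes was correlated over the 20 mice in 36 pairs, with a two-sided permutation test of 100000 shuffles within groups. H2-Q10 was too low to be included. Pearson's r lay between -0.35 and 0.47 with a median of 0.094, and 22 pairs were above 0. No pair passed an adjusted p of 0.05. The highest r was that of Tap2 and Psmb8 (r = 0.47, permutation p = 0.0769, adjusted p = 0.624; rho = 0.33, permutation p = 0.174, adjusted p = 0.801), and r was 0.073 without the 2 mice farthest from the median of Tap2. Tap1 and Tap2 had an r of 0.33 (permutation p = 0.0494, adjusted p = 0.592) and a rho of 0.58 (permutation p = 0.00188, adjusted p = 0.0677), and r was 0.32 without the 2 farthest mice. H2-K1 and H2-D1 had an r of -0.29 (permutation p = 0.274, adjusted p = 0.657) and a rho of -0.16 (permutation p = 0.552, adjusted p = 0.829), and r was -0.22 without the 2 farthest mice.

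**Figure D4:**
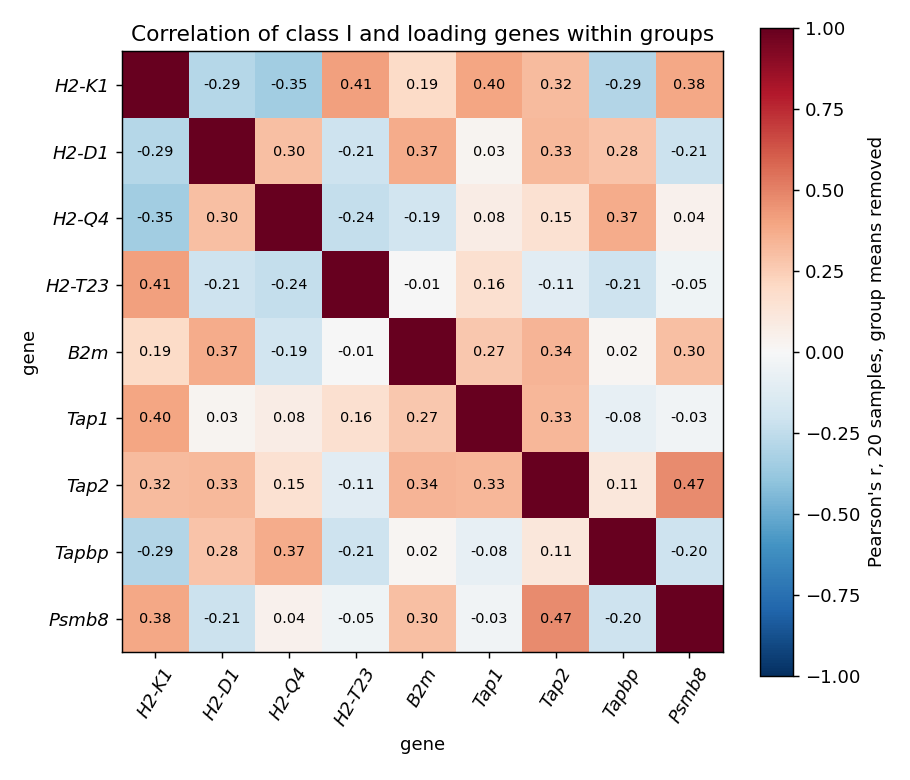
Pearson's r (colour and number) between the log2 CPM of 9 genes over 20 mice after removal of the group means, with the genes on both axes. Values lie between -0.35 and 0.47, and none of the 36 pairs passed an adjusted permutation p of 0.05.

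FL1 replicate 4 in estrus stood at the lower end of its group for 6 of the 10 genes at once, which were H2-K1, H2-D1, B2m, Tap1, Tap2 and Psmb8. Its heavy chain sum was 260 CPM, whereas the other FL1 mice in estrus had 387 to 524 CPM. For H2-T23 it was the highest of its group.

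The 5 genes outside the pathway whose pattern within groups was most like the mean of the 9 standardized genes, out of 14938, were Ndufaf6 (r = 0.85), A930004J17Rik (r = 0.83), Cox15 (r = 0.79), C87436 (r = 0.79) and Ttc8 (r = 0.78). These are the highest values among many, over 20 samples, and carry no test.

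The lists of further genes of the pathway gave no calls between the lines with edgeR. In a list of 11 peptide loading genes, which holds B2m and the TAP and tapasin genes, 0 were called between the lines over both stages, the median log2 fold change was 0.09, and 2 had an unadjusted p under 0.05, B2m and Tap1. Over all genes 1.21% were called and 11% had an unadjusted p under 0.05. Calr, which encodes the chaperone calreticulin of the loading complex, fell by 0.90 ± 0.21 on the log2 scale from estrus to diestrus in ctrl (adjusted p = 0.0419, edgeR), from 2499 ± 451 to 1342 ± 368 CPM, and was 1558 ± 410 and 1387 ± 328 CPM in FL1. In a list of 7 immunoproteasome genes 0 were called over both stages and 6 had a log2 fold change above 0, against 51.2% of all genes, with a median of 0.31, and 2 had an unadjusted p under 0.05. These were Psmb10 (0.49 ± 0.22, adjusted p = 0.407) and Psme1, an activator subunit (0.33 ± 0.16, adjusted p = 0.441, edgeR). The 14 constitutive proteasome genes had a median of 0.00 on the rounded log2 scale, with 7 above 0 and 0 called, Psmb3 (0.40 ± 0.17) and Psmb2 (-0.30 ± 0.21) having the lowest p.

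Regulators and targets of interferon signalling likewise gave no calls between the lines. Of 25 regulators of class I genes 0 were called over both stages. Over all genes 1.21% were called, a share at which a list of this size can hold none. The regulators had a median log2 fold change of -0.07, with 10 above 0, against 51.2% of all genes. The lowest p-values were those of Nfya, a subunit of the factor that binds CCAAT (-0.86 ± 0.29, adjusted p = 0.169), and Irf2 (-0.49 ± 0.22, adjusted p = 0.380, edgeR). Nlrc5, the transactivator of class I genes, was near 0 in ctrl mice in estrus (0.0347 ± 0.0776 CPM) and was 1.23 ± 1.46 CPM in FL1 mice in estrus, 3.72 ± 4.16 CPM in ctrl and 4.98 ± 2.28 CPM in FL1 mice in diestrus (adjusted p = 0.559 between the lines, edgeR). Of 37 interferon response genes 26 could be tested over both stages, and 0 were called by edgeR, 3 with an unadjusted p under 0.05, against 11% of all genes. Their median log2 fold change was 0.06, with 16 above 0. The lowest p-values were those of Gbp7, a guanylate-binding protein (0.83 ± 0.28, adjusted p = 0.168), and Bst2, known as tetherin (-0.36 ± 0.14, adjusted p = 0.319, edgeR). Of the class I-like genes, 6 of 7 could be tested and 0 were called, with the lowest p for Fcgrt and Procr. Of 9 genes of quality control in the endoplasmic reticulum 0 were called, with the lowest p for Sel1l (0.57 ± 0.19, adjusted p = 0.153, edgeR) and Pdia4.

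Tested markers of macrophages and vessels had positive line values over both stages. All 12 macrophage markers had a log2 fold change above 0, against 51.2% of all genes, with a median of 1.36 against 0.01. Of them 1 was called, Lyz2, which encodes lysozyme (2.09 ± 0.38, adjusted p = 0.00226, edgeR), against 1.21% of all genes. Ptprc, Cd68 and Adgre1 passed the filter on low counts among FL1 mice but not among ctrl mice, so their sign is no support. Within estrus 7 of 9 tested macrophage markers were above 0, and within diestrus 7 of 7. The 12 markers summed to 26.3 to 73.4 CPM in ctrl and 61.9 to 138 CPM in FL1 mice in estrus. In diestrus the sums were 7.87 to 28.9 and 14.6 to 116.3 CPM, and no marker was at 0 in a whole group. The sum of 9 endothelial markers was 36.9 to 82.4 CPM in ctrl and 42.6 to 127 CPM in FL1 mice in estrus, and 29.7 to 61.7 and 40.8 to 149 CPM in diestrus, with 0 called. The 7 MHC class II genes summed to 44.2 ± 18.4 and 73.3 ± 18.8 CPM in estrus in ctrl and FL1 mice. In diestrus they summed to 36.1 ± 13.2 and 50.6 ± 32.3 CPM. Of the 6 class II genes tested over both stages 4 had a line value above 0, and 0 were called. Lowest in p were Cd74 (1.47 ± 0.53, adjusted p = 0.220) and H2-Ab1 (1.46 ± 0.58, adjusted p = 0.301, edgeR). Below 0 were H2-DMa (-1.60 ± 0.94, adjusted p = 0.596) and H2-DMb1 (-0.07 ± 0.92, adjusted p = 0.995, edgeR). The lowest p among the endothelial markers was that of Kdr, a receptor of vascular growth factor (1.32 ± 0.44, adjusted p = 0.169), and Pecam1 (1.08 ± 0.55, adjusted p = 0.484, edgeR).

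Over both stages 4 of 5 blood genes were tested, with 0 called, against 1.21% of all genes. All 4 had a line log2 fold change above 0 and an unadjusted p under 0.05, against 51.2% and 11% of all genes. The lowest p-values were those of Hbb-bs (1.26 ± 0.39, adjusted p = 0.122) and Hba-a1 (1.03 ± 0.35, adjusted p = 0.181, edgeR), which encode haemoglobin chains. Although the oocyte was left behind, the sum of 8 oocyte markers was 127 to 575 CPM in ctrl and 200 to 576 CPM in FL1 mice in estrus and 58.0 to 578 and 90.5 to 634 CPM in diestrus. Of these 6 had a line value above 0 and 0 were called, with the lowest p for Gdf9 (1.18 ± 0.48, adjusted p = 0.328) and Ooep (0.60 ± 0.37, adjusted p = 0.620, edgeR). Of 8 markers of theca and stroma 7 had a line value above 0, with 0 called. By stage in ctrl 1 of the 8 was called, Cyp17a1, the androgen-forming enzyme of theca cells, against 1.36% of all genes. It rose by 3.17 ± 0.54 in diestrus (adjusted p = 0.0069, edgeR). Only Cyp17a1 was above 0 by stage in ctrl. The median of the 8 was -1.09, and 6 had an unadjusted p under 0.05, against 11.8% of all genes. Of the granulosa cell markers 5 of 10 had a line value above 0 and 0 were called. By stage in ctrl 6 of 10 were above 0, with 2 called higher and 1 lower, against 1.36% of all genes called. The FSH receptor gene Fshr rose by 1.71 ± 0.23 (adjusted p = 0.00155) and Fst, which encodes follistatin, by 1.28 ± 0.23 (adjusted p = 0.0101). Amhr2, which encodes a receptor of anti-Müllerian hormone, fell by 0.96 ± 0.20 on the log2 scale (adjusted p = 0.0230, edgeR). The part of these cells in the class I values was not tested. Of the 10 T and natural killer cell markers 8 were at 0 in all ctrl mice in estrus, 4 in FL1 mice in estrus, 5 in ctrl mice in diestrus and 6 in FL1 mice in diestrus, Klrd1 in each group. The 1 that could be tested between the lines was Il2rb (0.27 ± 1.05, adjusted p = 0.977, edgeR). In bulk samples such as these, a different number of cells of a type and a different amount of RNA per cell cannot be told apart.

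Within groups no relation of the class I genes with these markers passed the test. Over 27 relations of 9 genes with the macrophage, class II and endothelial sums, chosen after the values of the markers had been seen, no Pearson correlation passed an adjusted p of 0.05, the lowest being 0.766 by permutation. For the macrophage sum r was 0.085 with H2-K1 (permutation p = 0.756, adjusted p = 0.874; rho = -0.0015, permutation p = 0.997), 0.17 with B2m (permutation p = 0.467, adjusted p = 0.766; rho = 0.080, permutation p = 0.745) and -0.36 with H2-D1 (permutation p = 0.0853, adjusted p = 0.766; rho = -0.46, permutation p = 0.0701), each over 20 mice. Without the 2 mice farthest from the median of the sum these r were -0.16, 0.20 and -0.35. The part of macrophages and vessels in the line difference of the class I genes was not tested.

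To set these values beside their neighbours, the region of chromosome 17 around them was taken from 2 Mb before H2-K1 to H2-M3 (chr17:31996017-37274484, GRCm38) and holds 404 annotated genes, among them all of the 10 genes except B2m. Of the other genes in it, 132 were tested over both stages, 61 had a log2 fold change above 0, the median was -0.04, and 1 was called, where 1.21% of all genes were called. This was 1110038B12Rik, a noncoding RNA host gene 0.954 Mb from H2-K1, at -0.93 ± 0.21 (adjusted p = 0.0144, edgeR). By stage in ctrl, where 1.36% of all genes were called, 1 of 119 was called, Angptl4, which encodes an inhibitor of lipoprotein lipase (-1.31 ± 0.22, adjusted p = 0.0069, edgeR), and in FL1, with 0.221% of all genes, 0 of 122 (edgeR).

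**Figure D5:**
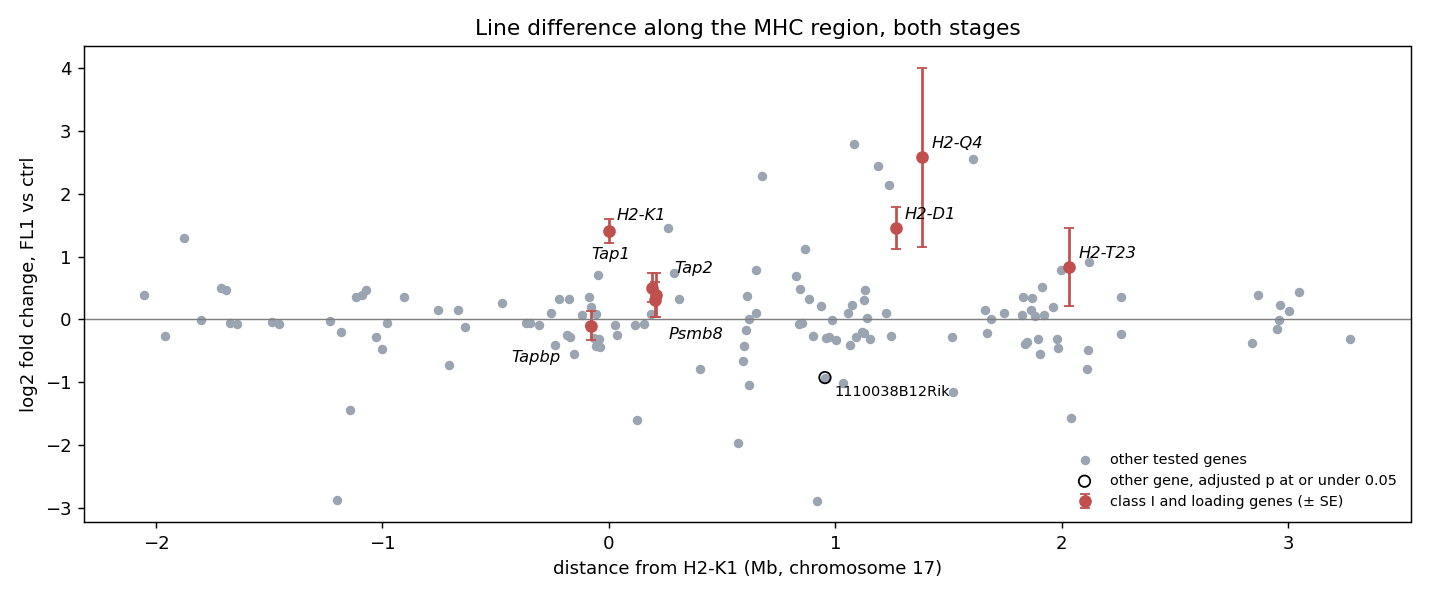
Log2 fold change of FL1 against ctrl over both stages (vertical axis) for tested genes of the MHC region by their distance from H2-K1 in Mb (horizontal axis). Red points with SE bars are those of the 10 genes that lie in the region and were tested. Grey points are the 132 other genes, and the circled gene, 1110038B12Rik, passed an adjusted p of 0.05. The grey points include further heavy chain genes, among them H2-T22 (-1.57), H2-T10 (0.91) and H2-M3 (-0.32). H2-K1 and H2-D1 lie at 1.41 and 1.45, while Tapbp, Tap1, Psmb8 and Tap2 close to H2-K1 lie between -0.10 and 0.51.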

How the data were processed

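The authors trimmed the reads of 20 3′ mRNA libraries, aligned them with STAR to GRCm38 and deposited raw counts per Ensembl gene. These counts were used as deposited, and the counting tool is not given in the sources used here. Of 55487 identifiers 55227 were found in GENCODE M21, which gave symbols. All samples were grouped by the labels. The members and lists were chosen with earlier results of these data known. Named beyond the 10 genes are genes of the lists called in any comparison, otherwise the 2 with the lowest p between the lines, called genes of the MHC region and the 5 genes whose pattern within groups was most like the mean of the 9 genes that passed the filter. H2-T22, H2-M3 and Nlrc5 fall outside this rule and were chosen with their values known.

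In R 4.3.3, edgeR 4.0.16 fitted quasi-likelihood models (TMM, minimum count 10, minimum total 15, minimum share 0.7, not robust, Benjamini-Hochberg over all tested genes, threshold 0.05), and SEs were derived from the F statistic. Log2 CPM had a prior count of 2. P-values measure the spread between mice. Alternatives were DESeq2 1.42.0, RLE factors, no filter, the replicate number as a block, all samples in one fit, each sample left out and, added after seeing the data, the bias-adjusted quasi-likelihood. Scripts were tested on simulated data. Python 3.11.15 and BLAST 2.17.0 were used for tables and sequences. The 3-count floor covers counting error only.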

Additional observations from a re-analysis of the deposited data

Results flagged for a closer look

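In a group of 5, a value was looked at again when its gap to the nearest other value took up most of the range of the group, a rule that chance meets in about 1 in 20 groups. Of 37 groups of values of the 10 genes 2 met it. H2-K1 in ctrl mice in estrus was 1, where replicate 3 had 50.7 CPM and the others 87.6 to 102.6 CPM, a gap of 0.712 of the range. H2-Q4 in ctrl mice in diestrus was the other, where replicate 2 had 4.43 CPM and the others 0 to 0.894 CPM, a gap of 0.798 of the range.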

How the results depend on the processing

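The share of tested genes that was called depended on the tool. In edgeR it was 0.769% between the lines in estrus, 0.248% in diestrus, 1.21% over both stages and 0.0% for the interaction, and 1.36% and 0.221% by stage in ctrl and FL1 (100, 32, 181, 0, 175 and 29 genes). With DESeq2 it was 1.76%, 0.485%, 1.63%, 0.00372%, 2.19% and 1.09% in the same order (425, 118, 438, 1, 526 and 265 genes). Without a filter on low counts it was 1.55%, 0.439%, 1.19%, 0.0223%, 1.45% and 1.23%. With the bias-adjusted quasi-likelihood, chosen after seeing the data, it was 2.20% in estrus, 0.458% in diestrus, 3.21% over both stages, and 2.48% and 1.23% by stage. With all 20 samples in one fit it was 0.435% by stage in FL1. With the replicate number as a block it was 0.446% in estrus and 0.101% in diestrus (58 and 13 genes). Same-numbered samples correlated between -0.166 and 0.117, and 2 of 20 correlated best with their own number, so the numbers were not taken as pairs. When each sample was left out in turn the share was 0.490% to 0.966% in estrus, lowest without FL1 replicate 1, 0.158% to 0.237% in diestrus, lowest without FL1 replicate 4, 0.901% to 1.35% over both stages, 0.583% to 1.31% by stage in ctrl, lowest without ctrl diestrus replicate 5, and 0.0958% to 1.31% by stage in FL1, lowest without FL1 diestrus replicate 3 and highest without FL1 diestrus replicate 1. The cause of these shifts was not tested.

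Of the genes described, H2-D1 over both stages remained called in 20 of 20 fits that left out a sample, with log2 fold changes of 1.31 to 1.82. In estrus 0 genes were called, but 1, H2-D1, with the bias-adjusted quasi-likelihood (adjusted p = 0.0187), without a filter (adjusted p = 2.69e-06) and without ctrl replicate 3, so that leaving out samples gave 0 to 1. Without a filter 1 was called in diestrus (H2-D1, adjusted p = 0.0442), 1 by stage in ctrl (H2-D1, adjusted p = 0.0125) and 1 by stage in FL1 (Tapbp, adjusted p = 0.0477), all with edgeR, and without ctrl replicate 3 in estrus 1 was called by stage in ctrl. Values near 0 changed sign. With the block Tap2 was -0.016 in estrus, 0.035 for the interaction, and 0.059 and 0.30 by stage in ctrl and FL1. With the bias-adjusted quasi-likelihood H2-T23 was 0.032 by stage in ctrl. With samples left out H2-T23 was -0.19 to 0.85 and Psmb8 -0.16 to 0.31 in estrus, H2-T23 -0.37 to 0.66 and Tap2 -0.18 to 0.22 by stage in ctrl, and Tap2 -0.38 to 0.25 by stage in FL1 and -0.34 to 0.29 for the interaction. The ratio of the heavy chain sums stayed between 2.32 and 2.69 in estrus and between 1.81 and 2.19 in diestrus with samples left out. The bound of H2-Q10 in estrus was 5.21-fold to 12.6-fold with ctrl mice left out, chosen after seeing the data, and that of H2-Q4 1.84-fold to 3.11-fold with FL1 mice left out. Counts of H2-Q4 and H2-Q10 were too low for firm statements at this depth.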
